A study of Mus musculus with 6 samples.

Results

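Solute carrier genes, whose symbols begin with Slc and a number, encode membrane proteins that move nutrients, ions, metals and metabolites across the cell surface and the membranes of organelles. The genes described here were chosen by symbol and by level. Each gene was read from the probe set with 1 gene symbol that had the highest mean intensity over the 6 arrays, and it was kept where that mean was at least 60. This left 170 of 347 Slc genes on the array, of 18193 genes in all. The mean intensity chose the genes, so their levels are given as a description. Of the 170, 4 are not carriers by symbol but genes named after one (Slc9a3r1, Slc9a3r2, Slc4a1ap and Slc7a6os).

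RNA came from NIH3T3, an established mouse fibroblast line, with mutant LPAR1 (3 arrays) or with wild-type LPAR1 (3 arrays). LPAR1 is the receptor through which fibroblasts sense lysophosphatidic acid, a growth-stimulating lipid. Each genotype had 1 array at 0, 60 and 120 minutes, and wherever 3 intensities are given for a genotype they stand in that order. The labels give neither the mutation, nor how the mutant receptor was introduced, nor the treatment that started the clock, nor whether a genotype is 1 clone or culture, so all p-values measure the spread between these 6 arrays alone.

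Carriers are grouped into families by sequence, and members of a family often share a kind of substrate. Import carriers set how fast a fibroblast can take up glucose, amino acids and phosphate, and stimulation with serum or growth factors is known to raise the mRNA of several of them. Exporters of zinc and iron limit the metal content of the cytosol, and most carriers of family 25 connect the cytosol with the mitochondrial matrix.

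Levels are intensities on a linear scale, and differences are log2 of the intensity plus 16, so differences of dim probe sets are understated. The median intensity per array lay between 34.1 and 37.3. All 12 fibroblast markers were above the level filter, with a summed intensity of 70887 to 71912 in mutant arrays and 73351 to 75449 in wild-type arrays. At an adjusted p under 0.05, 1 of them was higher and 4 lower in mutant cells (8.33% and 33.3%, beside 10.5% and 9% of all genes). The largest of these was Col1a1 (-0.49, adjusted p = 0.000183). Over 120 minutes none rose and 2 fell (16.7%, beside 30.8% of all genes), Pdgfra most (-0.64, adjusted p = 3.45e-05). Of the markers of other cells on the array, 4 of 8 epithelial (Epcam, Cdh1, Krt5 and Ocln), 1 of 6 endothelial (Cdh5), 2 of 6 leukocyte (Csf1r and Adgre1), 2 of 7 neural (Tubb3 and Mbp) and none of 4 adipocyte markers were above the filter. Their summed intensities in mutant and in wild-type arrays were 431 to 559 and 476 to 531 for epithelial, 122 to 140 and 85.8 to 93.9 for endothelial, 150 to 198 and 179 to 192 for leukocyte, 178 to 209 and 217 to 225 for neural and 30.6 to 64.2 and 49 to 62.5 for adipocyte markers. Ptprc, which defines leukocytes, and Pecam1, which defines endothelium, lay below the filter at mean intensities of 17.9 and 4.4. Cdh5 was higher in mutant cells by a log2 difference of 0.97. The part of these markers in the results was not tested. The probe set of Lpar1 read 1496, 1514 and 1438 in mutant cells and 1335, 1290 and 1289 in wild-type cells, which does not check the mutation. The 5' to 3' ratio of Actb, a sign of RNA integrity, was 0.505, 0.683 and 0.661 in mutant arrays and 0.579, 0.650 and 0.699 in wild-type arrays. It was thus lowest at 0 minutes in both genotypes. The same ratio for Gapdh was 0.954, 1.03 and 1.03 in mutant arrays and 1.02, 1.03 and 0.991 in wild-type arrays, lowest at 0 minutes in mutant and at 120 minutes in wild-type arrays. The part of these ratios in the time differences was not tested. In RNA of a whole culture, fewer cells with a transcript and less of it per cell cannot be told apart.

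The start regions of 4 carrier genes with large rises are shown first, chosen after their motif matches were seen. RefSeq (GRCm38.p6) gave a start for 135 of the 170 genes, and the 250 bases before each start (178 windows for these genes, 32851 for all genes) were searched on both strands for 5 motifs. These were the metal response element core (TGCACNC or TGCGCNC), the E-box (CACGTG), the cAMP response element (TGACGTCA), the AP-1 site (TGANTCA) and the ATF4 composite element (TGATGNAA). Capitals mark the match of 1 motif in each window, written 5' to 3' on the strand of the gene and ending at the base before the start.
Slc30a1, metal response element core (chr1:191906531-191906780, plus strand): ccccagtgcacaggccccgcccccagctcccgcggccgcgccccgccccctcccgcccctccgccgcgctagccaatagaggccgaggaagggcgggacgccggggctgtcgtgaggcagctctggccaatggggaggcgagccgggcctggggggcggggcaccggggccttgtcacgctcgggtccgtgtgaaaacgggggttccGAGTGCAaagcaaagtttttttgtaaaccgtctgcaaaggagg
Slc20a1, E-box (chr2:129198523-129198772, plus strand): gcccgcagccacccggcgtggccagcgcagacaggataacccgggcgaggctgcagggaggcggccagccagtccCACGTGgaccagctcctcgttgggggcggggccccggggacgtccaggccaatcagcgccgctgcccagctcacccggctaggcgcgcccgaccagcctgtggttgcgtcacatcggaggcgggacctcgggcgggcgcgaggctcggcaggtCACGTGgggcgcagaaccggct
Slc16a1, E-box (chr3:104638414-104638663, plus strand): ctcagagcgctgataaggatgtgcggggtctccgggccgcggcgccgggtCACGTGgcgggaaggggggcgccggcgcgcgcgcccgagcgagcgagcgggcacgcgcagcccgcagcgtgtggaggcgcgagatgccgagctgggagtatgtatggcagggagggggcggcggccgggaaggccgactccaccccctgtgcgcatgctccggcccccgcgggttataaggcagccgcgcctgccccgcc
Slc7a1, AP-1 site (chr5:148399905-148400154, minus strand): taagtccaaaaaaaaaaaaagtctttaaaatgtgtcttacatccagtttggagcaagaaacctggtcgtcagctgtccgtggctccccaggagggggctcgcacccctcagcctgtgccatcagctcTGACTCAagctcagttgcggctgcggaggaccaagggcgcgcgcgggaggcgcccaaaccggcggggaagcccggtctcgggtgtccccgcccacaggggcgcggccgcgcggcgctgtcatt
The core in Slc30a1 began 43 bases before the start, the E-boxes in Slc20a1 began 175 and 22 bases before it, that in Slc16a1 200 bases before it and the AP-1 match in Slc7a1 123 bases before it. None of these matches overlapped a match of another of the 5 motifs. The windows of Slc20a1 and Slc16a1 each held 1 metal response element core as well, and Slc20a1 and Slc7a1 have another RefSeq start whose window held none of the 5 motifs. Among other risers, Slc30a4 had 2 metal response element cores and Slc2a1 had 1, while the windows of Slc35e4 and Slc16a10 held none of the 5 motifs. An E-box was found in 15.2% of the carrier windows and 6.02% of all windows, a metal response element core in 31.5% and 21.4%, and an AP-1 site in 5.06% and 6.75%. The cAMP response element was in 1.69% of carrier windows and 1.55% of all, and the ATF4 element in 1.69% and 3.45%. A match describes letters and shows no binding.

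The time course asked which carrier mRNAs changed within 120 minutes. In the first hour a small group of carriers rose. It held the zinc exporter Slc30a1, the cationic amino acid carrier Slc7a1, the phosphate carrier Slc20a1 and the glucose carrier Slc2a1. The vesicular zinc carrier Slc30a4 and the family 35 genes Slc35e4 and Slc35d1 rose as well. So did both chains of a large neutral amino acid exchanger, Slc7a5 and Slc3a2. These 9 were all the members that passed as higher at 60 against 0 minutes (adjusted p under 0.05), and 26 were lower. Of all 10916 genes tested, 7.37% were higher and 10.7% lower in this contrast (18.1% either way), against 20.6% of the members either way, so the share that changed was near the background. Of tested genes with a mean intensity of at least 60, 19.3% changed either way. Of the members that passed, 6 were at least 1.5-fold higher and 3 at least 1.5-fold lower, beside 335 and 187 of all 10916 genes tested. When each array was centred on its median, 16 members were higher and 18 lower. The lower count depended on single arrays, being 15 without the mutant and 16 without the wild-type 0 minute array, and 14 and 17 without the mutant and the wild-type 60 minute array.

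Between 60 and 120 minutes other carriers moved. Of the members, 16 were higher and 24 lower, against 10.2% and 15% of all genes (25.2% either way, 23.5% of the members). Among tested genes with a mean intensity of at least 60, 27.1% changed either way. The count of lower members was 13 without the wild-type 60 minute array, and with arrays centred on their median 25 members were higher and 17 lower. Over the whole 120 minutes 28 members were higher and 52 lower, and for all genes these shares were 16.2% and 30.8%. The share that changed either way was 47.1% for the members and 47.1% for all genes. It was 50.1% for tested genes with a mean intensity of at least 60. With arrays centred on their median the counts were 37 higher and 41 lower. The 3 time contrasts share arrays and are not independent. Members that passed a time contrast had the same sign in both genotypes in each case.

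**Figure D1:**
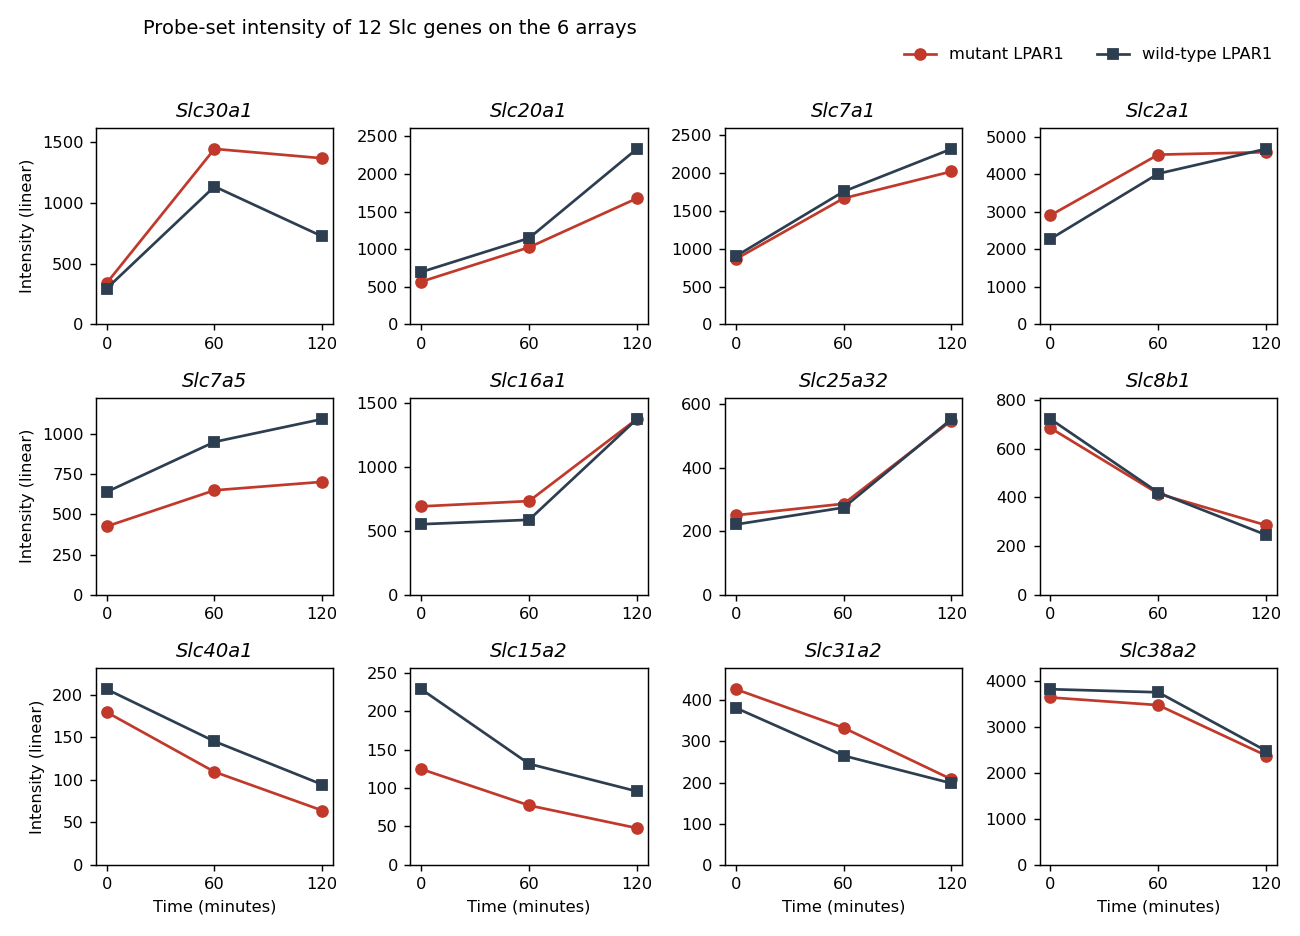
Probe-set intensity (linear) against time in minutes for 12 Slc genes, 1 point per array, with mutant cells in red circles and wild-type cells in dark squares. Slc30a1 and Slc2a1 gained most of their rise by 60 minutes, Slc16a1 and Slc25a32 rose after 60 minutes, and Slc8b1, Slc40a1 and Slc15a2 fell across both hours in both genotypes.

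Of the 26 carriers of zinc, iron, copper, magnesium, manganese and heme, 5 rose and 8 fell over 120 minutes. These shares, 19.2% and 30.8%, were near those of all genes tested (16.2% and 30.8%). Slc30a1, the zinc exporter of the cell surface, read 341, 1444 and 1367 in mutant cells and 296, 1135 and 724 in wild-type cells. Both later times lay above both 0 minute arrays. The rise at 60 minutes was the largest of any member, 1.96 ± 0.13 (SE; log2, 3.89-fold, adjusted p = 5.36e-06), and another probe set of the gene gave 2.04. Its start region carries the metal response element core printed above.

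Slc30a4, which loads zinc into vesicles, rose by 0.64 ± 0.056 at 60 minutes (adjusted p = 3.39e-05), with 1335, 2133 and 2107 in mutant cells and 1118, 1717 and 1860 in wild-type cells. Slc39a14, an importer of zinc, iron and manganese, rose later, by 0.48 between 60 and 120 minutes (adjusted p = 0.00323) and by 0.71 over 120 minutes. Another set of Slc39a14, near the filter level, gave 0.34 and 0.18 for these intervals. The mean of all its sets gave 0.30 over 120 minutes (adjusted p = 0.0199). The magnesium carrier Slc41a2 also rose late, from 60 to 120 minutes by 0.54 (adjusted p = 0.000409), with 611, 681 and 924 in mutant cells and 496, 537 and 851 in wild-type cells. Slc31a1, the high-affinity copper importer, was the fifth riser over 120 minutes.

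The iron exporter ferroportin, Slc40a1, fell in both hours. It read 180, 109 and 63.9 in mutant cells and 207, 145 and 94.4 in wild-type cells, a difference over 120 minutes of -1.15 (adjusted p = 1.18e-05). The 2 arrays of each time lay below the 2 of the time before, so no time overlapped its neighbour. Its 60 minute difference of -0.55 was -0.44 without the mutant 0 minute array, with an adjusted p of 0.068. Slc31a2, a copper carrier of endosomes and lysosomes, read 427, 333 and 208 in mutant cells and 382, 265 and 198 in wild-type cells and fell by 0.94 over 120 minutes (adjusted p = 1.26e-05). Another, dimmer probe set gave -0.37, and the 60 minute call of Slc31a2 was lost without the wild-type 60 minute array (-0.32, adjusted p = 0.0638) and with the mean of its sets (-0.27, adjusted p = 0.0547).

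Of 11 tested genes of metal handling outside the carriers, 2 rose at 60 minutes and none fell. This was 18.2% and 0%, beside 7.37% and 10.7% of all genes tested. The 2 risers were the metallothioneins, cysteine-rich proteins that bind zinc and copper. Mt2 read 4020, 6532 and 7141 in mutant cells and 3563, 6500 and 6444 in wild-type cells, and rose by 0.78 ± 0.052 (adjusted p = 4.45e-06). Mt1 rose by 0.49 ± 0.046 (adjusted p = 5.34e-05). In mouse cells Mt1, Mt2 and Slc30a1 are known targets of the zinc-sensing factor MTF1. At 60 minutes all 3 were higher than at 0 minutes in both genotypes, and a part of MTF1 in these rises was not tested.

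Of the 24 carriers of amino acids, transmitters and osmolytes, 3 rose and 2 fell at 60 minutes, and 4 rose and 7 fell over 120 minutes. At 60 minutes this was 12.5% and 8.33%, beside 7.37% and 10.7% of all genes tested. Over 120 minutes it was 16.7% and 29.2%, beside 16.2% and 30.8%. Slc7a1, which imports arginine and lysine, had 864, 1667 and 2021 in mutant cells and 902, 1757 and 2319 in wild-type cells. All arrays of a later time lay above all arrays of the earlier one. It rose by 0.94 ± 0.058 at 60 minutes (adjusted p = 2.64e-06) and by 1.28 over 120 minutes (adjusted p = 1.74e-07).

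Slc7a5, the light chain of the large neutral amino acid exchanger, read 426, 651 and 703 in mutant cells and 641, 952 and 1095 in wild-type cells, and rose by 0.58 ± 0.062 at 60 minutes (adjusted p = 0.000136). Its partner Slc3a2, the heavy chain that carries it to the surface, read 1115, 1539 and 1551 in mutant cells and 1180, 1540 and 1613 in wild-type cells, and rose by 0.42 ± 0.055 (adjusted p = 0.000556). Both reached most of their 120 minute level at 60 minutes.

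Slc38a2 and Slc1a4 fell in the second hour. Slc38a2, a sodium-coupled carrier of alanine and glutamine, read 3635, 3469 and 2374 in mutant cells and 3814, 3748 and 2476 in wild-type cells. It fell by 0.57 ± 0.048 between 60 and 120 minutes (adjusted p = 2.5e-05), but another probe set with a mean of 394.5 gave 0.12 for this interval and -0.87 for the first hour. Slc1a4, which carries alanine, serine and cysteine, fell by 0.50 in the second hour (adjusted p = 0.000713) and by 0.67 over 120 minutes. Slc7a2, a cationic carrier related to Slc7a1, read 777, 563 and 411 in mutant cells and 941, 724 and 513 in wild-type cells, opposite in direction to Slc7a1, a difference over 120 minutes of -0.87 (adjusted p = 3.74e-06). Its other probe sets above the filter gave -0.03 and -0.24, so the fall of Slc7a2 rests on its brightest set, and with the mean of all its sets the 60 minute and second-hour calls were lost (-0.17, adjusted p = 0.175, and -0.20, adjusted p = 0.113).

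Of 18 tested genes of the amino acid response and amino acid synthesis, 6 rose and 2 fell at 60 minutes, and 1 rose and 9 fell in the second hour. At 60 minutes this was 33.3% and 11.1%, beside 7.37% and 10.7% of all genes tested. In the second hour it was 5.56% and 50%, beside 10.2% and 15%. Chac1, which degrades glutathione and is induced by amino acid shortage, was transient, with 687, 2230 and 613 in mutant cells and 944, 3014 and 860 in wild-type cells. Sesn2, which restrains the growth kinase complex mTORC1 when leucine is low, had the same shape, with a rise of 0.72 and then a fall of 1.55. Ddit4, another restraint on mTORC1, fell by 1.43 at 60 minutes (adjusted p = 7.63e-05) and by 2.75 over 120 minutes.

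Of the 9 carriers of sugars and polyols, 1 rose and 5 fell over 120 minutes. This was 11.1% and 55.6%, beside 16.2% and 30.8% of all genes tested. The riser was Slc2a1, the basal glucose carrier GLUT1, with 2903, 4518 and 4583 in mutant cells and 2275, 4012 and 4670 in wild-type cells. It rose by 0.72 ± 0.076 at 60 minutes (adjusted p = 0.000114), and all 4 later arrays lay above both 0 minute arrays. The glucose carriers Slc2a8 and Slc2a6 fell over 120 minutes by 0.47 (adjusted p = 0.000954) and by 0.58 (adjusted p = 0.00106). The myo-inositol carrier Slc5a3 read 3168, 2532 and 2393 in mutant cells and 3477, 3019 and 2462 in wild-type cells, and fell by 0.45 over 120 minutes (adjusted p = 0.000184). Slc45a4 fell by 0.51 over the same interval.

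Of 8 tested genes of glucose uptake control, hexose phosphorylation and lactate, none rose and 2 fell at 60 minutes. This was 0% and 25%, beside 7.37% and 10.7% of all genes tested. Txnip, an arrestin-like protein that brings GLUT1 in from the surface, read 2858, 221 and 255 in mutant cells and 2220, 213 and 210 in wild-type cells, a difference at 60 minutes of -3.44 ± 0.082 (10.9-fold lower, adjusted p = 1.82e-09). Hk2, which phosphorylates glucose, rose in the second hour by 0.43 ± 0.071 (adjusted p = 0.00155). Arrdc4, a relative of Txnip, was 0.27 lower at 120 minutes (adjusted p = 0.0352).

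All 3 family 16 genes, which by family number form the carboxylate group, rose over 120 minutes, beside 16.2% of all genes tested. Slc16a1, the lactate and pyruvate carrier MCT1, was flat and then rose, with 691, 733 and 1375 in mutant cells and 552, 586 and 1375 in wild-type cells. The second-hour rise was 1.05 ± 0.083 (adjusted p = 1.58e-05), and both 120 minute arrays lay above the other 4. Its start region holds the E-box printed above. Slc16a10, which despite its family carries aromatic amino acids, rose by 0.59 ± 0.074 in the second hour (adjusted p = 0.000291). Its other probe sets above the filter gave 0.78 and 0.19. Slc16a11 rose by 0.30 over 120 minutes (adjusted p = 0.0353).

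Among the 7 carriers of nucleosides, phosphate and vesicular anions, Slc20a1 had the largest change. This sodium-phosphate cotransporter read 569, 1026 and 1677 in mutant cells and 698, 1148 and 2334 in wild-type cells, with no overlap between times. It rose by 0.77 ± 0.075 at 60 minutes (adjusted p = 7.24e-05) and by 1.63 over 120 minutes (3.09-fold, adjusted p = 1.89e-07). By the brightest set of each gene this was the largest net rise of any member, close to the 1.60 of Slc30a1. Another set of Slc30a1 gave 1.97. A dimmer probe set of Slc20a1 gave 0.89 at 60 minutes and 0.60 over 120 minutes. Between 60 and 120 minutes that set thus went the other way (-0.29). The mean of all sets of Slc20a1 gave 0.10 for that interval (adjusted p = 0.55) and 0.73 over 120 minutes (adjusted p = 0.000437). Slc20a2, its family partner, rose in the second hour by 0.43 (adjusted p = 0.00115). Slc29a3, a nucleoside carrier of lysosomes, fell by 0.43 at 60 minutes (adjusted p = 0.00319), but its other set above the filter gave -0.17 and the mean of its sets -0.30 (adjusted p = 0.0738).

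Family 25 holds the mitochondrial carriers and a peroxisomal carrier, Slc25a17, which is counted with them throughout. In its 33 genes none rose and 8 fell at 60 minutes, and 3 rose and 13 fell over 120 minutes. At 60 minutes 0% rose and 24.2% fell, beside 7.37% and 10.7% of all genes tested. Over 120 minutes 9.09% rose and 39.4% fell, beside 16.2% and 30.8%. Slc25a32, which brings folate or flavin into mitochondria, was the exception in size, with 250, 286 and 548 in mutant cells and 221, 274 and 553 in wild-type cells. It rose by 0.94 ± 0.076 in the second hour (adjusted p = 1.82e-05), and another probe set gave 1.16 over 120 minutes, against 1.17. Slc25a37, mitoferrin 1, which imports iron, rose by 0.56 in the second hour (adjusted p = 0.000768). The other riser over 120 minutes was Slc25a25, an ATP-magnesium and phosphate carrier.

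Falls in family 25 were smaller than 2-fold. Slc25a45 read 351, 282 and 203 in mutant cells and 344, 279 and 191 in wild-type cells, and fell by 0.77 over 120 minutes (adjusted p = 2.2e-05). Slc25a30 fell by 0.73 (adjusted p = 4.31e-05) and Slc25a29, a carrier of basic amino acids, by 0.58. Slc25a38, which supplies glycine for heme synthesis, fell by 0.43 at 60 minutes (adjusted p = 0.0108), but its adjusted p was 0.0753 without the mutant 60 minute array (-0.40) and 0.118 without the wild-type 0 minute array (-0.37). The brightest set of the family, that of the phosphate carrier Slc25a3, read 8923, 8611 and 8706 in mutant cells and 8500, 8569 and 8441 in wild-type cells and passed no test. Slc25a4, an ADP and ATP exchanger, also passed none.

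Of the 17 carriers of protons, bicarbonate, chloride, sodium, potassium, calcium and sulfate, 1 rose and 4 fell over 120 minutes. This was 5.88% and 23.5%, beside 16.2% and 30.8% of all genes tested. Slc8b1, the sodium-calcium exchanger of mitochondria, read 685, 415 and 285 in mutant cells and 722, 420 and 246 in wild-type cells. It fell by 0.73 ± 0.081 at 60 minutes (adjusted p = 0.000171) and again by 0.63 in the second hour, a difference over 120 minutes of -1.36 (2.56-fold, adjusted p = 1.04e-06), the largest fall of any member. Slc26a11, a sulfate and anion carrier, was lower at 60 minutes and stayed there, with 124, 73.4 and 72.5 in mutant cells and 133, 71.7 and 74.3 in wild-type cells (-0.70 ± 0.1, adjusted p = 0.000934). The anion exchanger Slc26a6 rose in the second hour by 0.45 ± 0.11 (adjusted p = 0.012). That call was lost without the wild-type 60 minute array (0.38, adjusted p = 0.103) and without the wild-type 120 minute array (0.37, adjusted p = 0.0828). The proton exchanger Slc9a5 fell by 0.39 at 60 minutes (adjusted p = 0.0433), and its adjusted p lay between 0.0548 and 0.354 without any 1 of the 4 arrays of 0 and 60 minutes. The call of Slc9a5 was also lost with quantile normalization, median centring, centring of each chromosome in each array (chosen after seeing the data), no filter or the mean of its sets (adjusted p from 0.0644 to 0.205).

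Of 9 tested kinases, ligases and pumps that set ion carrier activity, 2 rose and 2 fell over 120 minutes. This was 22.2% each way, beside 16.2% higher and 30.8% lower of all genes tested. Sgk1, a kinase that raises the surface level of several carriers, read 3429, 8874 and 8256 in mutant cells and 2657, 7877 and 7916 in wild-type cells, a rise of 1.46 ± 0.066 at 60 minutes (adjusted p = 2.16e-07). Nedd4l, a ubiquitin ligase that Sgk1 inhibits, rose by 0.67 over 120 minutes (adjusted p = 6.06e-05). Wnk4, a kinase upstream of chloride cotransporters, fell by 0.55 (adjusted p = 0.00511).

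Of the 21 carriers of organic ions, peptides, vitamins, choline and lipids, none rose and 3 fell at 60 minutes, and 3 rose and 6 fell over 120 minutes. At 60 minutes this was 0% and 14.3%, beside 7.37% and 10.7% of all genes tested. Over 120 minutes it was 14.3% and 28.6%, beside 16.2% and 30.8%. Slc15a2, a proton-coupled carrier of short peptides, read 125, 77.4 and 47.9 in mutant cells and 229, 132 and 95.8 in wild-type cells. It fell by 0.66 ± 0.097 at 60 minutes (adjusted p = 0.00112) and was 2.2-fold lower over 120 minutes (adjusted p = 1.06e-05). Its second-hour difference of -0.47 was -0.40 without the mutant 60 minute array (adjusted p = 0.053). Its other probe sets, both below the filter, gave 0.05 and -0.01 at 60 minutes. With the mean of all sets of Slc15a2 the 60 minute difference was -0.21 (adjusted p = 0.105), the second-hour difference -0.18 (adjusted p = 0.155) and the difference over 120 minutes -0.38 (adjusted p = 0.00463). Slc15a4, a lysosomal carrier of histidine and peptides, fell by 0.86 over 120 minutes (adjusted p = 6.45e-06), and Slc44a2, a choline carrier, by 0.59.

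Slc46a3, a lysosomal carrier of the folate family, read 140, 123 and 70.4 in mutant cells and 153, 125 and 65.3 in wild-type cells. It fell by 0.95 over 120 minutes, most of it in the second hour (-0.74 ± 0.098, adjusted p = 0.000413). In the second hour 2 of the 21 rose (9.52%) and 4 fell (19%), beside 10.2% and 15% of all genes tested. Slc19a1, the reduced folate carrier, rose by 0.58 ± 0.084 (adjusted p = 0.000678), with 255, 222 and 331 in mutant cells and 182, 177 and 280 in wild-type cells. Slc23a2, the ascorbate carrier, rose by 0.54 (adjusted p = 0.000393). These were the 2 risers.

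Of the 24 genes of families 33, 35 and 37, which carry nucleotide sugars, sugar phosphates and acetyl-CoA in the secretory pathway, 5 rose and 6 fell over 120 minutes. This was 20.8% and 25%, beside 16.2% and 30.8% of all genes tested. Slc35e4, whose substrate is not assigned, read 287, 533 and 621 in mutant cells and 374, 626 and 760 in wild-type cells, and rose by 0.79 ± 0.068 at 60 minutes (adjusted p = 2.92e-05). Slc35d1, a UDP-sugar carrier of the endoplasmic reticulum, rose by 0.44 ± 0.082 (adjusted p = 0.00481). This call depends on the probe set: another set of Slc35d1, with a mean of 77.8, gave -0.45, the mean of all its sets gave -0.01, and without the mutant 60 minute array the difference was 0.34 (adjusted p = 0.0654). Slc35e2 fell by 0.46 at 60 minutes (adjusted p = 0.00393). Of the genes of other family numbers, Slc66a2 rose by 0.53 and Slc66a1, a lysosomal carrier of basic amino acids, fell by 0.35 over 120 minutes. None of the 4 genes named after a carrier passed any contrast.

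**Figure D2:**
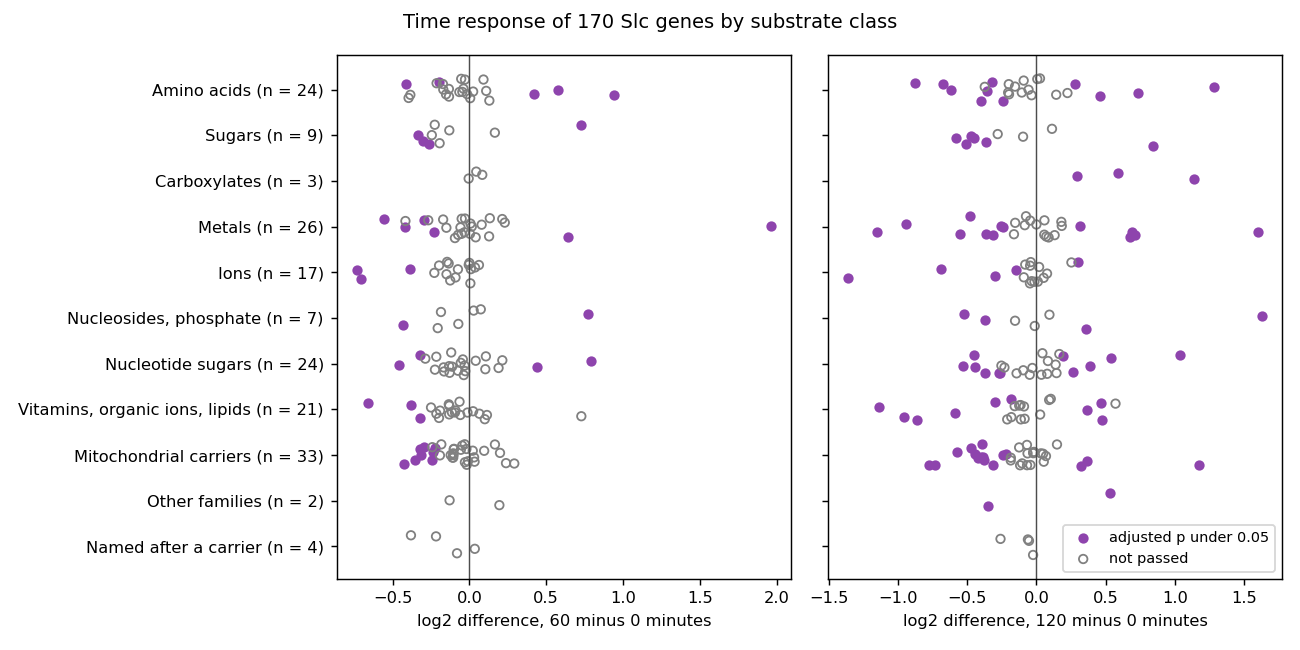
Log2 differences at 60 minus 0 minutes (left) and 120 minus 0 minutes (right) for the 170 Slc genes, 1 point per gene, by substrate group. Filled points passed at an adjusted p under 0.05, and in the left panel the risers are 9 genes spread over the amino acid, sugar, metal, phosphate and nucleotide sugar groups, with Slc30a1 far to the right at 1.96.

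With 1 array per genotype and time, a difference in response between genotypes has no test, and such differences are given as values. The members whose response was higher in mutant cells at both times included Slc29a1, an equilibrative nucleoside carrier, with 589, 578 and 536 in mutant cells and 900, 705 and 584 in wild-type cells. Its genotypes lay apart at 0 minutes and close at 120 minutes. Slc1a7, a glutamate carrier, had 89.8, 70.1 and 106 in mutant cells and 102, 67.4 and 66.4 in wild-type cells. Slc39a13 and Slc25a13 differed in response by at most 0.25.

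Among those whose response was lower in mutant cells, Slc44a4 differed most. This choline-like carrier read 231, 132 and 164 in mutant cells and 16.1, 131 and 81.4 in wild-type cells, and the wild-type 0 minute array stood far below the other 5. Slc22a12, a urate carrier, read 121, 74.5 and 78.0 in mutant cells and 87.3, 114 and 111 in wild-type cells. Slc35d2 had 111, 73.1 and 75.6 in mutant cells and 98.1, 93.1 and 98.7 in wild-type cells. For Slc2a1 the response was lower in mutant cells by 0.18 at 60 minutes and by 0.38 at 120 minutes, and its 0 minute level was higher in mutant cells. The differences for Slc35a4 and Slc44a2 were at most 0.25 in size.

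The comparison of genotypes asked which carriers differed between mutant and wild-type cells over the 3 times together. Mutant cells had more mRNA of Slc16a10, Slc35e3, Slc25a40, Slc6a15 and Slc30a1, and less of Slc15a2, Slc7a5, Slc12a4 and Slc25a37. Of the 170 members, 17 were higher and 21 lower in mutant cells, against 10.5% and 9% of all genes. Either way this was 22.4% of the members and 19.5% of all genes, a share near the background, and 20.6% of tested genes with a mean intensity of at least 60. Only Slc16a10 and Slc15a2 passed with a difference of at least 1.5-fold, beside 78 higher and 118 lower of all 10916 genes tested. The higher count was 10 when the mutant and 11 when the wild-type 0 minute array was left out, and the lower count was 12 without either 60 minute array. With time point left out as a block the same test called no member, as the time response then enters the error (9 higher and 9 lower had an unadjusted p under 0.05). Each of the 38 members that passed had the same sign at all 3 times.

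Slc16a10, the aromatic amino acid carrier, read 319, 327 and 503 in mutant cells and 197, 190 and 293 in wild-type cells. At every time the mutant array was higher, by 0.65, 0.73 and 0.75, and the fitted difference was 0.71 ± 0.06 (1.64-fold, adjusted p = 5.79e-05). Its other probe sets above the filter gave 0.53 and 0.08. Slc35e3, of unassigned substrate, read 560, 474 and 412 in mutant cells and 388, 290 and 279 in wild-type cells (0.58 ± 0.06, adjusted p = 0.000198).

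Slc25a40, whose human counterpart takes part in glutathione import into mitochondria, read 1314, 1231 and 1041 in mutant cells and 942, 860 and 767 in wild-type cells (0.47 ± 0.048, adjusted p = 0.000167). Slc6a15, a sodium-coupled carrier of branched-chain amino acids and proline, read 1047, 938 and 797 in mutant cells and 755, 680 and 564 in wild-type cells (0.47 ± 0.049, adjusted p = 0.000198). For both genes the lowest mutant array lay above the highest wild-type array. Slc30a1 differed by 0.48 ± 0.11 (adjusted p = 0.0141), but unevenly, by 0.19, 0.34 and 0.90 at the 3 times, and without either 120 minute array the difference was 0.27. The call of Slc30a1 was lost with shrinkage without a trend (adjusted p = 0.0641). Slc30a7, which loads zinc into the Golgi, was higher by 0.31 ± 0.058 (adjusted p = 0.00618), and Slc39a8, an importer of zinc and manganese, by 0.34 ± 0.071 (adjusted p = 0.01). Without the mutant 60 minute array Slc39a8 gave 0.26 (adjusted p = 0.052).

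Slc19a1, the folate carrier, was higher by 0.33 ± 0.068 (adjusted p = 0.00943), and this was 0.27 without the mutant or the wild-type 0 minute array (adjusted p = 0.0655 and 0.061). Slc18b1, a vesicular polyamine carrier, was higher by 0.32 ± 0.064 (adjusted p = 0.00709), with 604, 498 and 445 in mutant cells and 435, 397 and 386 in wild-type cells. Slc29a3 was higher by 0.31 ± 0.062 (adjusted p = 0.00838), while a set of it near the filter level gave -0.02 and the mean of its sets 0.14 (adjusted p = 0.288).

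Slc15a2, the peptide carrier, was lower in mutant cells by a fitted difference of -0.76 ± 0.079 (1.69-fold, adjusted p = 0.000203), and by -0.80, -0.66 and -0.81 at the 3 times. Its other probe sets, both below the filter, gave 0.19 and -0.11, and the mean of all its sets gave -0.23 (adjusted p = 0.0467). Slc7a5 was lower at every time by a similar amount, with -0.57, -0.54 and -0.63 and a fitted difference of -0.58 ± 0.051 (adjusted p = 7.1e-05). Its heavy chain Slc3a2 was at -0.05 (adjusted p = 0.523), and passed as lower with each chromosome centred (-0.17, adjusted p = 0.0268). Slc12a4, a potassium-chloride cotransporter, read 198, 213 and 228 in mutant cells and 256, 250 and 343 in wild-type cells (-0.37 ± 0.076, adjusted p = 0.00846), so the genotypes did not overlap.

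Slc25a37, mitoferrin 1, was lower by a fitted difference of -0.36 ± 0.067 (adjusted p = 0.00563). The phosphate carrier Slc20a1 was lower as well (-0.31 ± 0.062, adjusted p = 0.00806), and its other set gave -0.49. Slc7a2 was at -0.31 ± 0.052 (adjusted p = 0.00309) and Slc35e4 at -0.29 ± 0.056 (adjusted p = 0.00618). Another bright set of Slc35e4 gave -0.37 and a set below the filter 0.25, and the mean of its sets was -0.14 (adjusted p = 0.139). Among the lower members named here, Slc40a1, Slc29a1 and Slc1a5 lost their call when an array was left out. Leaving out either array of a time gave the same genotype estimate, as the array that stays has no partner. These losses thus concern a time and not a single array. Slc40a1 (-0.34 ± 0.081, adjusted p = 0.0182) lost its call without any 1 of the 4 arrays of 60 and 120 minutes (-0.33 or -0.28, adjusted p from 0.0502 to 0.0623) and with the mean of its sets (-0.26, adjusted p = 0.0538). Slc29a1 (-0.33 ± 0.081, adjusted p = 0.0197) was at -0.20 without the mutant or the wild-type 0 minute array (adjusted p = 0.103 and 0.111). Slc1a5, the glutamine carrier ASCT2, at -0.30 ± 0.073 (adjusted p = 0.0181), was at -0.21 without the mutant or the wild-type 120 minute array (adjusted p = 0.0558 and 0.0587). Shrinkage without a trend also ended the calls of Slc29a1 (adjusted p = 0.0715) and Slc1a5 (adjusted p = 0.0618).

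By group, amino acid carriers had 1 higher and 6 lower in mutant cells, metal carriers 5 higher and 2 lower, mitochondrial carriers 5 higher and 3 lower, nucleotide sugar carriers 2 higher and 4 lower, and the nucleoside and phosphate group 1 higher and 3 lower, beside 10.5% higher and 9% lower of all genes. With each chromosome centred, the amino acid carriers stood at 1 higher and 6 lower, the metal carriers at 2 and 2, the mitochondrial carriers at 2 and 2, the nucleotide sugar carriers at 1 and 5, and the nucleoside and phosphate group at 0 and 2. Among the 6 lower amino acid carriers, centring brought in Slc3a2 and dropped Slc7a6 (adjusted p = 0.28). By family number Slc16a10 is counted with the carboxylate group and not with the amino acid carriers. No sugar carrier passed as deposited, and 1 was lower with chromosomes centred. Shares of all genes under this centring are not given here. Of the 18 genes of the amino acid response and synthesis, 1 was higher and 11 lower. Chac1 was lower by a difference of -0.45 ± 0.046 (adjusted p = 0.000171), with every mutant array below the wild-type array of its time. Of the 11 genes of metal handling only Atox1, a copper chaperone, passed (-0.32 ± 0.042, adjusted p = 0.000876). Of the bright mitochondrial sets, Slc25a39 was at 0.13 (adjusted p = 0.0445) and Slc25a5, an ADP and ATP exchanger, at -0.14 (adjusted p = 0.0383).

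**Figure D3:**
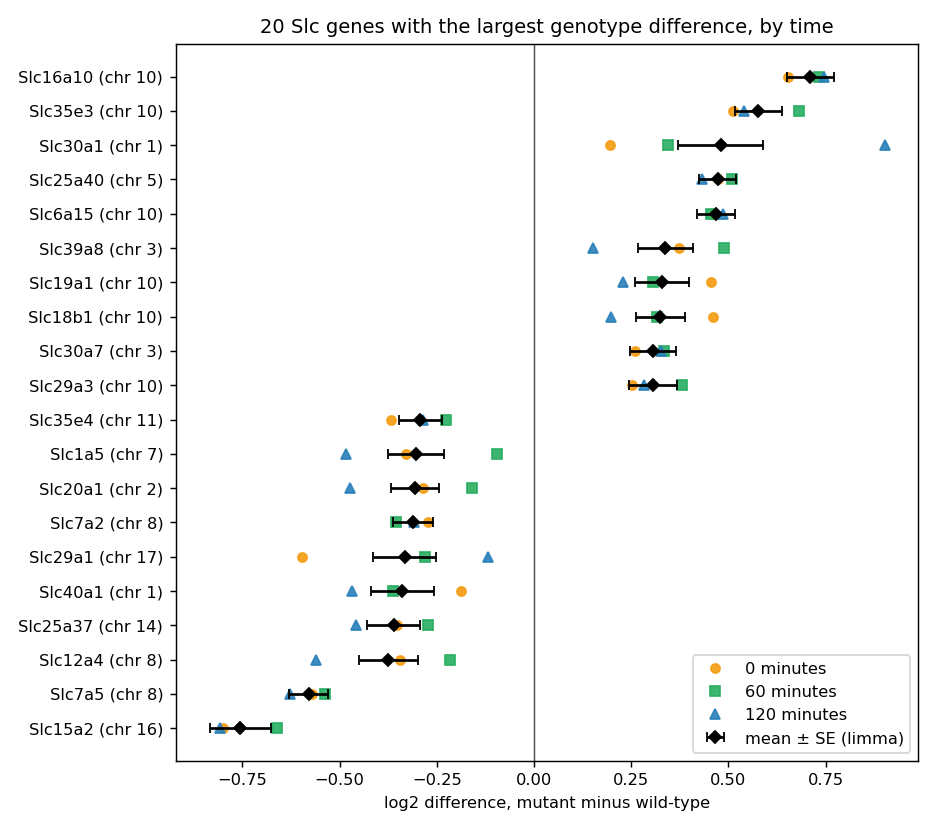
Log2 difference, mutant minus wild-type, for the Slc genes with the largest fitted differences among those that passed, 10 in each direction, each with its chromosome. Diamonds and bars give the limma estimate ± SE and coloured marks give each time, and for Slc30a1 the mark at 120 minutes (0.90) stands apart from the other times.

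The genotype differences lay unevenly over the chromosomes, taken from RefSeq by gene identifier. On chromosome 10, 8 of 12 members were higher in mutant cells and none lower: Slc16a10, Slc35e3, Slc6a15, Slc19a1, Slc18b1, Slc29a3, Slc41a2 and Slc25a16. On chromosome 8, 7 of 13 were lower and none higher: Slc7a5, Slc12a4, Slc7a2, Slc10a7, Slc20a2, Slc35e1 and Slc7a6. The genes of those chromosomes moved as a whole. Over all genes tested, the median difference was 0.13 on chromosome 10, where 33.2% of 555 genes were higher, and -0.15 on chromosome 8, where 33.7% of 590 were lower. Chromosomes 3 and 19 had medians of 0.15 and 0.13, chromosome 13 had 0.08, chromosome 14 had -0.06, and the other 14 lay between -0.01 and 0.03. On chromosome 10 the median at the 3 times was 0.13, 0.17 and 0.11, and on chromosome 8 it was -0.16, -0.11 and -0.16.

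Outside chromosomes 3, 8, 10, 13, 14 and 19, 5 of 121 members were higher (4.13%) and 13 lower (10.7%), beside 6.78% and 7.97% of 8018 genes. When each chromosome was centred in each array, an alternative chosen after seeing the data, 7 members were higher and 20 lower. Of these, 6 and 16 had passed before. The share of all genes under this centring is not given here, so these counts have no background beside them. Slc16a10 (0.59, adjusted p = 0.000307), Slc35e3 (0.46, adjusted p = 0.000916) and Slc6a15 (0.35, adjusted p = 0.00157) kept their call on chromosome 10, and so did Slc7a5 (-0.46, adjusted p = 0.000391), Slc12a4 (-0.25, adjusted p = 0.0467) and Slc7a2 (-0.19, adjusted p = 0.0342) on chromosome 8. Slc19a1 (0.21, adjusted p = 0.066), Slc18b1 (0.21, adjusted p = 0.0566), Slc29a3 (0.19, adjusted p = 0.0558), Slc39a8 (0.18, adjusted p = 0.0924) and Slc30a7 (0.15, adjusted p = 0.103) did not. On chromosomes whose median lay near 0, Slc15a2 was then at -0.75, Slc25a40 at 0.44 and Slc30a1 at 0.47. The cause of the chromosome pattern was not tested.

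**Figure D4:**
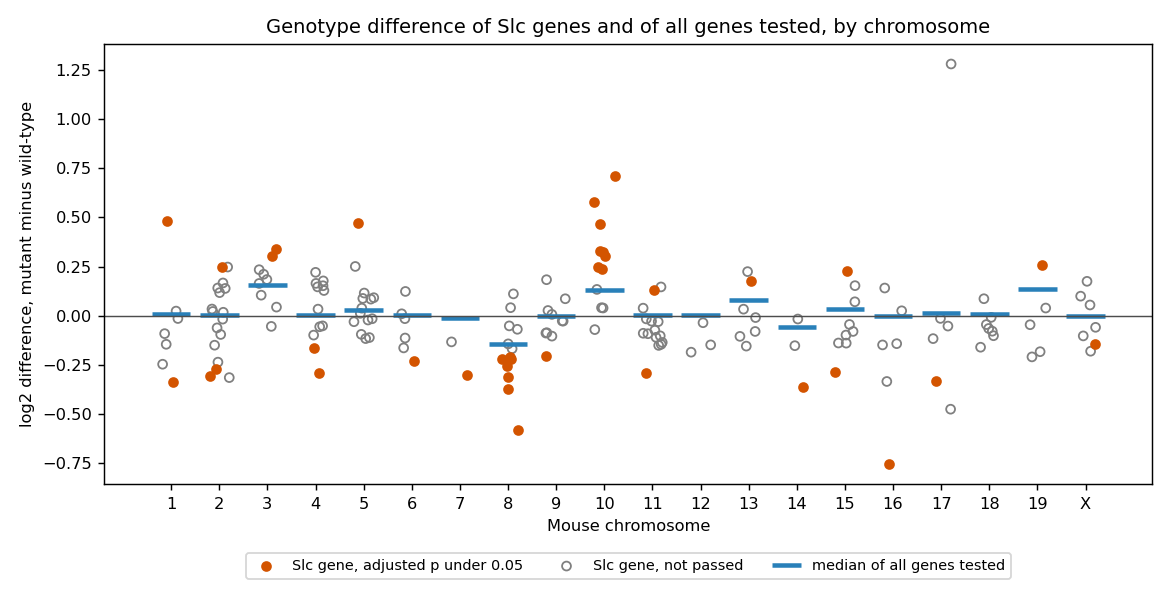
Log2 difference, mutant minus wild-type, of the 170 Slc genes by mouse chromosome (points, filled where adjusted p was under 0.05), with a bar for the median of all genes tested on that chromosome. The bars of chromosomes 3, 10, 13 and 19 lie above 0 and those of chromosomes 8 and 14 below it, and the open point at 1.28 on chromosome 17 is Slc44a4.

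By level, members ranged from 60.4 to 8625 with a median of 303, beside a median of 315 for all genes tested. Of the 170, 95 passed at least 1 of the 4 contrasts (55.9%) and 75 none, against 58.7% of all genes tested. Just inside the level threshold were Slc46a1 (60.4), Slc14a2 (61.6) and Slc32a1 (61.7), and just outside were Slc25a47 (55.8), Slc2a4rg-ps (55.6) and Slc7a3 (55.4). Slc7a3, a cationic amino acid carrier, read 80.0, 46.1 and 22.9 in mutant cells and 94.7, 56.0 and 32.9 in wild-type cells, so a gene that falls can drop out by its mean. All 170 members were above the filter of the test.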

How the data were processed

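RNA of NIH3T3 cells was measured on 6 Affymetrix expression arrays, 1 per genotype and time. The authors deposited linear intensities of probe sets, summarised by PLIER in Affymetrix Power Tools 1.14.3.1 according to the submitters' processing notes. Background correction and scaling between arrays are not given in the sources used here, and values were used as deposited. Of 45101 probe sets, 64 controls, 932 sets with several genes and 9160 with none in the platform annotation were left out. Intensities were analysed as log2(intensity + 16). A filter at the 40th percentile of the mean level of genes (39.8) left 10916 genes.

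limma 3.58.1 in R 4.3.3 fitted genotype and time as additive terms, with empirical Bayes shrinkage on a trend, 2 residual and 7.75 prior degrees of freedom. Tests were two-sided with Benjamini-Hochberg adjustment over all genes tested, and the threshold was an adjusted p of 0.05. Time point is the block that pairs arrays of the genotypes, taken from the labels. The fit was tested on simulated data. The number of arrays limits the precision.

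The members, the gene lists and the rule for named genes were chosen with earlier results of these data known. The rule named, per contrast, the 10 members with the largest higher and lower difference among those that passed with 1 sign throughout. It also named the 6 in each direction for the response difference, the 10 brightest and the 3 on each side of the level threshold. Up to 4 of each group and up to 3 genes of each other list were added. Slc39a6, Slc25a24 and Slc6a6 of the 10 brightest are not described above, and most cell type markers are given only in sums. Slc31a1, Slc25a25 and other members named without values show which members a count holds and were chosen after their values were seen. Alternatives were the offset, the filter, the scaling, the probe set, the shrinkage, the block, the level of membership and each array left out in turn.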

Additional observations from a re-analysis of the deposited data

Results flagged for a closer look

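Among members named for their response difference, every later array of 4 moved in 1 direction in mutant and the other in wild-type cells. These differences were not tested, and the count does not cover members outside that named set. Slc44a4 was lower at both later times in mutant cells and higher in wild-type cells, with differences in response of -2.93 at 60 minutes and -2.06 at 120 minutes. The wild-type 0 minute array read 16.1 and the other 5 between 81.4 and 231. Its genotypes differed by 2.94 at 0 minutes, 0.01 at 60 minutes and 0.89 at 120 minutes, and the fitted difference of 1.28 ± 0.40 did not pass (adjusted p = 0.0508). For Slc22a12 the differences in response were -0.94 and -0.84. For Slc12a7, a potassium-chloride cotransporter, which read 72.9, 80.6 and 84.0 in mutant cells and 95.6, 86.2 and 77.7 in wild-type cells, they were 0.25 and 0.42. For Slc6a8, the creatine carrier, which read 377, 402 and 402 in mutant cells and 401, 342 and 358 in wild-type cells, they were 0.31 and 0.24.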

How the results depend on the processing

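With time point or genotype left out (no replicate block), limma called 0 members higher and 0 lower for genotype, 3 lower for 60 minus 0 minutes, 4 higher and 7 lower for 120 minus 60 minutes, and 15 higher and 31 lower for 120 minus 0 minutes. Median centring of arrays gave 16 members higher at 60 minus 0 and 25 at 120 minus 60 minutes, and quantile normalization gave 15 higher at 60 minus 0 minutes. The mean of all probe sets gave 16 lower at 60 minus 0 and 14 lower at 120 minus 60 minutes, and turned Slc35d1 at 60 minutes to -0.0082. Shrinkage without a trend gave 11 higher for genotype. Centring by chromosome gave 7 higher for genotype, and 15 higher and 16 lower at 60 minus 0 minutes. With 1 array left out, members higher and lower were 10 to 22 and 12 to 16 for genotype, 9 to 12 and 14 to 34 for 60 minus 0 minutes, 13 to 17 and 13 to 24 for 120 minus 60 minutes, and 20 to 29 and 40 to 55 for 120 minus 0 minutes. The cause of these shifts was not tested. Of 79 calls of named members, 79 passed with an offset of 1 or 64, 78 with median centring, 67 with the mean of all probe sets, 73 with chromosome centring and 37 without the block. All 20 named calls of 120 minus 0 minutes passed in each of the 6 omissions, as did 15 of 20 for genotype, 14 of 19 for 60 minus 0 and 18 of 20 for 120 minus 60 minutes. Dim probe sets limit the precision of small changes.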
